A study of Homo sapiens with 4 samples.

Results

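The promoters of the short arm of chromosome 5 were examined in a ChIP-chip study of RPF-1 in HEK293 cells. They comprise 125 of the 17299 array regions that hold at least 5 probes with a single match in the genome. Regions were taken where the position on chromosome 5 lay below 47000000. They were set against 596 regions of the long arm, from which 1 densely tiled interval with 55 regions was left out (median -0.156 ± 0.205 over the arrays). The arm was proposed after the log2 ratios of these arrays had been seen, so its ratios are given as a description and no test of the arm is made.

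HEK293 cells are an established line derived from human embryonic kidney. Its stable derivative HEK293/RPF-1 expresses HA-tagged RPF-1 when tetracycline is withheld. Induced cells (Tet-) were kept for 48 h without tetracycline. Uninduced control cells (Tet+) were the same line kept for 48 h with it. Both were fixed with 1% formaldehyde and precipitated with the same anti-HA antibody, so each array sets an induced against an uninduced precipitate. Induced DNA carried Cy5 and uninduced DNA Cy3 in all 4 arrays, with no dye swap. The labels do not say whether the line is 1 clone, nor whether separate cultures were used for each array. The spread entering each p-value is thus that of the arrays and may be technical. The induced cells of arrays 2 to 4 are labelled with different numbers and those of array 1 with none, and what the numbers stand for is not said.

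RPF-1 is a retina-derived POU-domain factor. POU proteins bind short, often AT-rich DNA elements through a POU-specific domain and a homeodomain joined by a linker. In ChIP-chip, sheared chromatin recovered with an antibody is labelled and hybridised to tiled probes, and a bound factor is looked for as a local rise over neighbouring probes. The short arm of chromosome 5 is the arm whose deletion causes cri du chat syndrome. A chromosome arm holds promoters of many unrelated genes, so its members share a place and not a function.

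Each value below is the mean log2 ratio of induced over uninduced signal over the single-match probes of a region, after the median of the array had been subtracted. A value of 0 means the ratio of the typical probe of that array. Positions are those of the deposited files. Their genome build is not given in the sources used here, and no genome or annotation of that build was used. Regions are therefore named by position, without genes, exons or sequence. Of the 125 members, 108 were designed as 2700 bp, and the longest spanned 6963 bp. They held 2784 single-match probes, with a median of 22 per region (6 to 47). The arrays had 386230 probes each. Signal intensities were not used here, so the number of arrays limits the precision.

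Ratios of short-arm promoters lay above those of long-arm promoters in all 4 arrays. The median short-arm region was at 0.153, 0.113, 0.165 and 0.098 log2 in arrays 1 to 4, against 0.035, -0.030, 0.024 and -0.011 for the long arm. No short-arm median fell to the level of a long-arm median. The difference, short minus long arm, was 0.118, 0.143, 0.141 and 0.108, with a mean of 0.127 ± 0.017 (SD, n = 4 arrays), which is a ratio of 1.09-fold. This difference exceeded the spread between arrays, but the arm was chosen on this contrast, so the comparison is no test of it. The shift was small beside the spread over regions. The quartiles of the short arm averaged -0.038 and 0.368, against -0.150 and 0.166 for the long arm, so the arms overlapped widely.

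**Figure D1:**
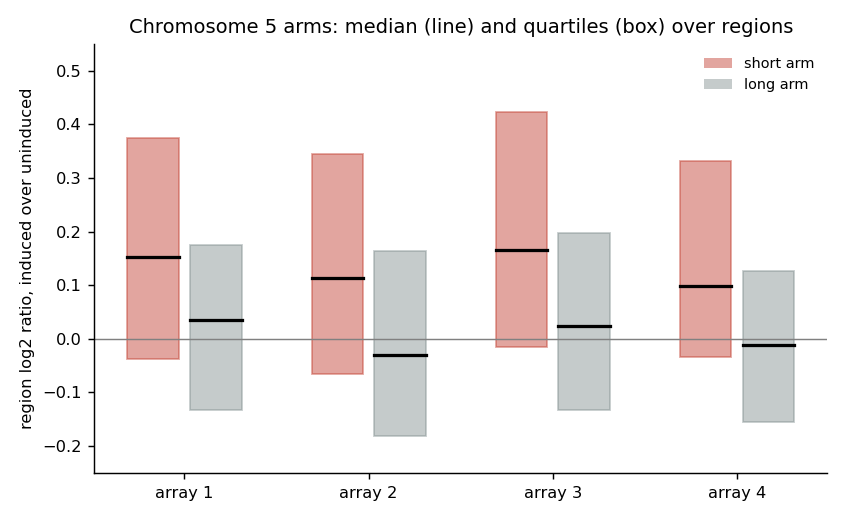
Region log2 ratio of induced over uninduced signal in each of the 4 arrays, for 125 short-arm regions (left of each pair) and 596 long-arm regions (right). Lines are medians over regions and boxes span the quartiles; the short-arm medians, 0.098 to 0.165, lie above every long-arm median.

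The median of the short arm also lay above that of every whole chromosome. A part proposed after its ratios had been seen is set here against wholes, and arms of other chromosomes were not computed. The short-arm median averaged 0.132 ± 0.032 over the arrays, while the highest chromosome, 12, had a median of 0.062 ± 0.007. Chromosome 5 as a whole ranked 6 of 24, at 0.014 ± 0.035. The median over all 17299 regions was -0.022 ± 0.006. Of the short-arm members, 95 (76.0%) had a mean above 0 and 30 lay below it. The share above 0 was 51.3% on the long arm and 46.6% over all regions.

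Single regions were tested against 0 with limma across the whole array. On the short arm 47 of 125 regions (37.6%) were called higher, with a ratio above that of the typical probe, where 11.2% of all regions were called higher (adjusted p threshold 0.05). On the long arm the count was 74 of 596 (12.4%). Only 3 short-arm regions (2.4%) were called lower, against 14.4% of all regions and 59 long-arm regions (9.9%). The remaining 75 members were not called and had means between -0.205 and 0.325. The arm was chosen on this same contrast, so these shares describe the arm and support nothing further. Without array 2 there were 27 regions called higher, and without array 4 there were 22, against 4.65% and 4.64% of all regions called higher in those fits. The count of lower regions was 1 without array 2, 6 without array 3 and 1 without array 4, against 5.5%, 15.7% and 4.72% of all regions called lower in those fits.

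Agreement in sign gave a similar division. The ratio was above 0 in all 4 arrays at 52 members (41.6%), against 18.0% of all regions, and below 0 in all 4 at 12 members (9.6%), against 25.7% of all regions. Of the 47 regions called higher, 44 were above 0 in every array. Their means ran from 0.217 to 0.832 with a median of 0.375. At least 0.5 log2 was reached by 14 members, all called. The share of all regions that reached it was not computed. The spread between arrays was larger than elsewhere, with a median SD of 0.168 for members, against 0.146 on the long arm and 0.144 over all regions.

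**Figure D2:**
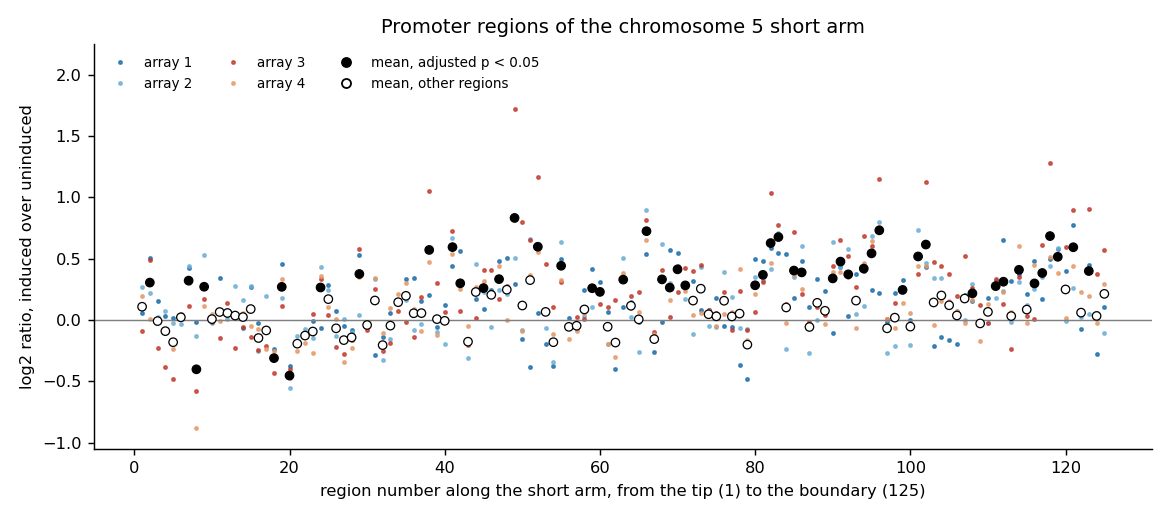
Log2 ratio of the 125 short-arm regions in order from the tip to the boundary, in each of 4 arrays (coloured points) with the mean (circles, filled where the adjusted p is below 0.05). Filled circles above 0 number 47 and thicken toward the boundary; the 3 filled circles below 0 all lie among the first 20 regions.

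The shift was unequal along the arm. The first 5 Mb, with 22 regions, averaged 0.070, 0.054, -0.132 and -0.069 in arrays 1 to 4, or -0.019 ± 0.097 (SD, n = 4). This window at the tip held no common direction, with arrays 1 and 2 above 0 and arrays 3 and 4 below. It had 4 regions called higher (18.2%, against 11.2% of all regions) and the 3 called lower. Over all regions 14.4% were called lower. Without array 3 its mean was 0.018. From 5 to 10 Mb, 9 regions averaged 0.040, 0.073, 0.058 and 0.032 in arrays 1 to 4, or 0.051 ± 0.018. In this window 2 regions were called higher (22.2%, against 11.2% of all regions). The median of these regions averaged 0.005 ± 0.034.

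As between 5 and 10 Mb, every array was above 0 in each later short-arm window that held at least 6 regions. Between 10 and 15 Mb, 11 regions averaged 0.198, 0.089, 0.171 and 0.149, a mean of 0.152 ± 0.046, while the median of the regions averaged 0.075 ± 0.077. Between 15 and 20 Mb, 6 regions averaged 0.223, 0.129, 0.179 and 0.200. Together these windows held 5 regions called higher and none called lower. The shares called higher were 27.3 and 33.3%, against 11.2% of all regions, while 14.4% of all regions were called lower. The windows of 20 to 25 and 25 to 30 Mb had 4 regions and 1 region. In the first of these the arrays gave -0.046, 0.423, 1.08 and 0.412, so array 3 set much of its mean of 0.468. Without array 3 the mean was 0.263.

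The densest stretch, from 30 Mb to the boundary, held 72 of the 125 regions and 34 of the 47 called higher, with none called lower. Over all regions 11.2% were called higher and 14.4% lower. Between 30 and 35 Mb, 19 regions averaged 0.154, 0.136, 0.211 and 0.121 in arrays 1 to 4. Between 35 and 40 Mb, 25 regions averaged 0.198, 0.244, 0.344 and 0.229. Between 40 and 45 Mb, 27 regions averaged 0.229, 0.185, 0.371 and 0.193. In these 3 windows 9, 12 and 13 regions were called higher, or 47.4, 48.0 and 48.1% of their regions. The last 2 windows had 22 of 25 and 25 of 27 regions above 0. Their means, 0.254 ± 0.063 and 0.244 ± 0.087, differed by less than the spread between arrays.

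Set among all 499 windows of 5 Mb with at least 10 regions, those at 35 and 40 Mb ranked 2 and 3, after the window at 20 Mb of chromosome X (0.320 ± 0.054). Ranks 4 to 8 were held by windows of chromosomes 12, 20 and 11, at 0.206 to 0.156. The windows at 30 and 10 Mb of chromosome 5 ranked 9 and 10, and the tip window ranked 245. In the single arrays the window at 30 Mb ranked 11, 34, 33 and 19 and that at 10 Mb ranked 6, 60, 57 and 9. The window at 35 Mb ranked 5, 4, 6 and 2. The window at 40 Mb ranked 2, 14, 3 and 4. The 24 long-arm windows of that size ran from -0.114 to 0.097, so 4 of the 5 short-arm windows of that size lay above all of them. Those 4 were above 0 in all 4 arrays, as were 5 of the 24 on the long arm and 16.8% of all 499. The window from 35 to 40 Mb had been named in earlier results of these data, and the arm was chosen on these ratios. The ranks and comparisons of windows are therefore descriptions and support nothing further.

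**Figure D3:**
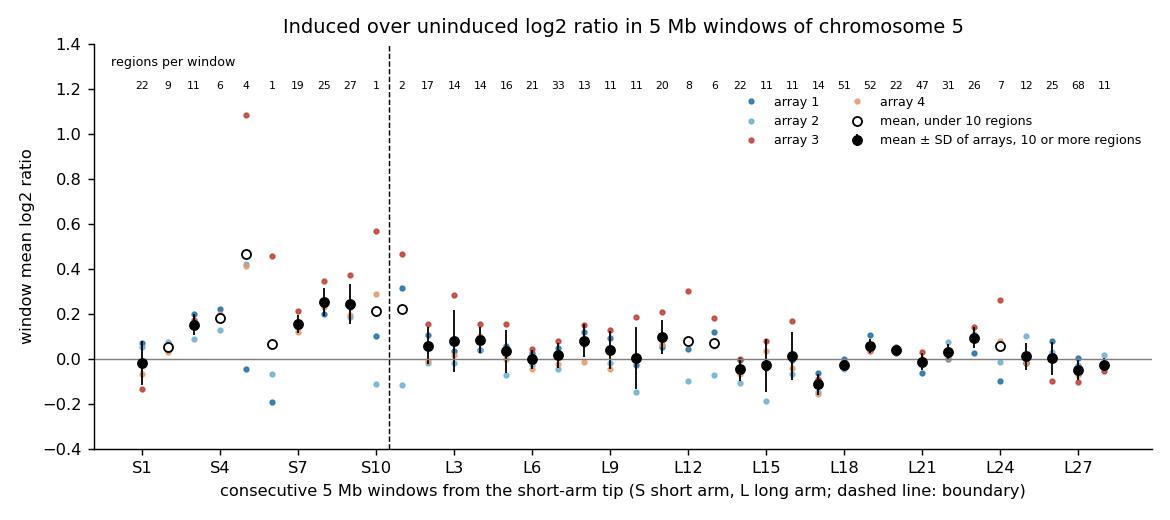
Mean log2 ratio of regions in consecutive 5 Mb windows of chromosome 5 from the short-arm tip, with each array as a coloured point and the mean ± SD of 4 arrays in black (open where a window has under 10 regions). Short-arm windows S8 and S9 stand at 0.254 and 0.244, while no long-arm window with 10 or more regions exceeds 0.097.

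The highest member lay from 20016546 to 20019246 and had a ratio 1.78 times that of the typical probe. Its 15 single-match probes gave 0.29, 0.50, 1.72 and 0.82 log2 in arrays 1 to 4, a mean of 0.83 ± 0.63 (SD, n = 4; adjusted p = 0.0076, limma). All arrays were above 0, array 3 far above the rest, and this was the largest spread of any member. Without array 3 the mean was 0.54. Its mean probe length of 58.3 bases was the longest of any member, against 52.5 over the short arm. The 5 regions between 20 and 30 Mb averaged 56.3 bases, and the part of probe length was not tested. The region from 24680168 to 24682868, at 0.06, 0.61, 1.16 and 0.56, averaged 0.60 ± 0.45, with array 1 again the lowest and array 3 the highest. Its adjusted p was 0.010 with all arrays and 0.056 without array 2 (limma, mean 0.59). This stretch of few regions also held one from 22888988 to 22891688, with -0.16, -0.08, 0.80 and -0.09, where array 3 alone was above 0. Its mean was 0.12 with all arrays and -0.11 without array 3. The region from 27073931 to 27076631, at -0.19, -0.07, 0.46 and 0.07, averaged 0.07 with all arrays and -0.06 without array 3.

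The next members lay in the dense stretch. The region from 39399912 to 39402612 gave 0.22, 0.80, 1.15 and 0.76 in arrays 1 to 4, a mean of 0.73 ± 0.38 (adjusted p = 0.003, limma). Array 1 was the lowest there and array 3 the highest. The region from 34020037 to 34022737 gave 0.54, 0.90, 0.82 and 0.65, a mean of 0.72 ± 0.16 (adjusted p = 0.0008, limma). The region from 36640245 to 36642945 gave 0.55, 0.71, 0.78 and 0.67, a mean of 0.68 ± 0.10, and had the lowest adjusted p of the arm, 0.00069 (limma). In these last 2 regions the arrays lay close together, between 0.54 and 0.90.

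Close behind came the region from 43515347 to 43518047, which had 10 probes and gave 0.50, 0.44, 1.28 and 0.51 (mean 0.68 ± 0.40). The region from 36337261 to 36339961 gave 0.59, 0.42, 1.04 and 0.47 (0.63 ± 0.28). The region from 40874842 to 40877542 gave 0.43, 0.46, 1.12 and 0.44 (0.62 ± 0.34). In all 3, array 3 was above 1 while the other arrays lay between 0.42 and 0.59. Adjusted p in these regions ran from 0.0028 to 0.004 (limma).

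Called regions also lay side by side. The longest runs of neighbouring regions called higher held 4 regions, and there were 3 such runs, from 34078574 to 34956339, from 36185745 to 36642945 and from 43348741 to 43553144. The last run held regions at 0.30, 0.38, 0.68 and 0.52. The longest run with means above 0 held 16 regions, from 42457582 to the last member, against at most 8 neighbouring regions on the long arm. The first region past the boundary was also above 0, at 0.38. Means above 0 made up 76.0% of members and 51.3% of long-arm regions, and regions called higher 37.6 and 12.4%. Run lengths rise with these shares and are not a separate result. Runs of called regions were not counted on the long arm. Across 124 pairs of neighbouring members the means correlated at r = 0.155, against -0.039 across 595 pairs on the long arm. Neighbours share the arrays and the position, so these are descriptions without a p.

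In the first 20 Mb the highest regions of the 4 windows stood at 0.32, 0.38, 0.59 and 0.33. The highest region of the first 5 Mb, from 663265 to 665965, gave 0.42, 0.44, 0.12 and 0.30, a mean of 0.32 ± 0.15 (adjusted p = 0.013, limma). Without array 2 or array 4 it stood at 0.28 and 0.33 with adjusted p of 0.074 and 0.066. From 7920016 to 7924315, the highest region between 5 and 10 Mb gave 0.53, 0.04, 0.58 and 0.35, a mean of 0.38 ± 0.24 (adjusted p = 0.014). Without array 4 it was not called, at 0.38 with adjusted p of 0.064. The region from 14729635 to 14732335 led the window from 10 to 15 Mb with 0.44, 0.67, 0.73 and 0.54, a mean of 0.59 ± 0.13 (adjusted p = 0.0012). The window from 15 to 20 Mb was led by the region from 16988639 to 16991339, at 0.48, 0.24, 0.17 and 0.44, a mean of 0.33 ± 0.15 (adjusted p = 0.011). Without array 4 its adjusted p was 0.081 at a mean of 0.30.

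The 3 members called lower all lay in the first 5 Mb, among its 22 regions. Lower calls made up 14.4% of all regions. The region from 1935380 to 1938080 gave -0.38, -0.56, -0.40 and -0.48, a mean of -0.45 ± 0.08, with a ratio 0.731 times that of the typical probe (adjusted p = 0.0026, limma). The region from 745921 to 748621 had 6 probes, the fewest of any member, and gave -0.02, -0.13, -0.58 and -0.88 (mean -0.40 ± 0.40, adjusted p = 0.034). Arrays 1 and 2 were near 0 there and arrays 3 and 4 well below it. Without array 2 its mean was -0.49 (adjusted p = 0.057), and without array 4 it was -0.24 (adjusted p = 0.20). The call was also lost with the median over its probes, at -0.22 (adjusted p = 0.15), and with multi-match probes included, at -0.06 (adjusted p = 0.54). The region from 1576576 to 1579276 gave -0.24, -0.32, -0.43 and -0.25, a mean of -0.31 ± 0.09 (adjusted p = 0.011). Its mean was -0.31 without array 2 (adjusted p = 0.051) and -0.33 without array 4 (adjusted p = 0.052).

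The 5 other members lowest among those below 0 in every array were not called (limma). They were the regions from 10301081 (mean -0.21), 36102241 (-0.20), 2803061 (-0.19), 15551104 (-0.18) and 34043463 (-0.16). With trend and robust moderation the regions from 10301081 and 2803061 were called lower, with adjusted p of 0.029 and 0.032 (limma). The region from 36102241 to 36104941 was the lowest between 35 and 40 Mb and gave -0.48, -0.07, -0.08 and -0.17, so array 1 alone was far from 0. Its mean was -0.24 without array 3 (adjusted p = 0.049, limma), and -0.11 both without array 1 (adjusted p = 0.33) and with all probes (adjusted p = 0.38). The lowest region between 30 and 35 Mb, from 32822501 to 32825201, gave -0.40, -0.20, 0.17 and -0.30. Its mean was -0.18 with all arrays (adjusted p = 0.16), -0.30 without array 3 (adjusted p = 0.011) and -0.11 without array 1 (adjusted p = 0.43). Between 5 and 10 Mb the lowest region started at 6765517 (-0.16, and -0.11 without array 4), and between 40 and 45 Mb it started at 40833546 (-0.05). The smallest spread of any member, 0.026, was that of the region from 9598658 to 9601358, which gave -0.04, -0.02, -0.08 and -0.03.

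Inside the regions the shift was broad. In 2700 bp regions, probes were grouped into 9 steps of 300 bp by distance from the centre. In each of the 9 steps the short arm lay above the long arm in all 4 arrays, by 0.067 to 0.196 log2 on average. Short-arm probes averaged 0.225 ± 0.081 at 300 bp from the centre and 0.062 ± 0.013 at 900 bp on the same side, against 0.033 ± 0.044 and -0.031 ± 0.016 on the long arm.

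**Figure D4:**
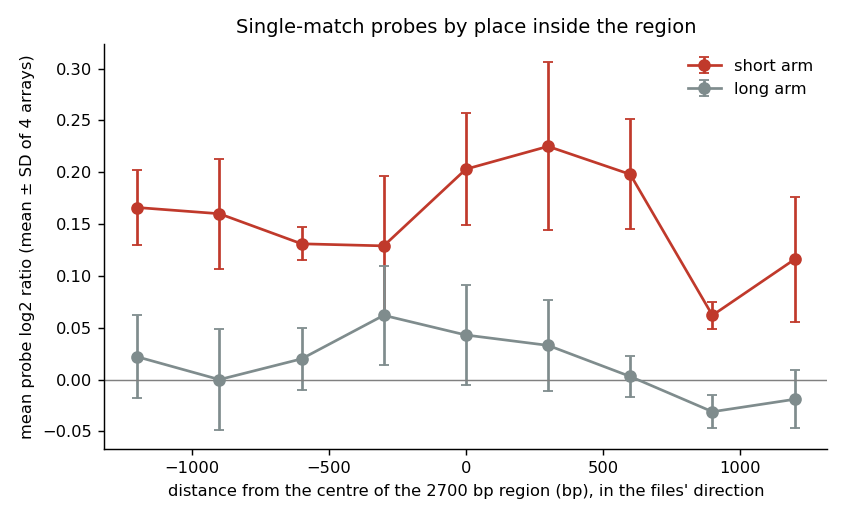
Mean log2 ratio of single-match probes by distance from the centre of 2700 bp regions, in steps of 300 bp, for the short arm (red) and the long arm (grey); bars are the SD of 4 arrays. The short arm lies above the long arm in all 9 steps, with the smallest difference at 0.067 log2.

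The left and right sides of a member were only loosely alike. Over 124 members with probes on both sides of the centre they correlated at r = 0.148, and over 595 long-arm regions at -0.011. Both sides were above 0 in 63 members and below 0 in 12, against 162 and 141 of the 595 long-arm regions. In the region from 14729635, the left side averaged 0.27 and the right side 0.92, so its excess lay mostly at one end. In the region from 39399912 both sides were alike, at 0.74 and 0.72, with 19 of 20 probes above 0 and 15 of them above 0 in all 4 arrays. The region from 36640245 had 21 of 24 probes above 0, and that from 34020037 had 18 of 20. No probe of these 4 regions was below 0 in all 4 arrays. In the lowest region, from 1935380, both sides stood at -0.45, and 16 of 26 probes were below 0 in every array.

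Probe length moved with the ratio in arrays 2 to 4 on the short arm, and less evenly elsewhere. Probes ran from 50 to 74 bases, and in designs that equalise melting temperature longer probes usually lie in AT-rich sequence. The arms were tiled alike, with a mean probe length of 52.5 bases on the short arm and 52.4 on the long arm. Over the 125 members, mean probe length and ratio had a Spearman correlation of 0.009, 0.340, 0.644 and 0.454 in arrays 1 to 4. On the long arm the values were -0.074, 0.024, 0.501 and 0.186, and over all 17299 regions they were -0.189, -0.109, 0.395 and 0.072, below 0 in arrays 1 and 2. The regions share the arrays and their neighbours, so no p is given. Array 3 had the strongest relation on both arms and over all regions.

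Within classes of probe length the arms differed by unequal amounts. Regions with a mean length of 50 to 51 bases showed no separation of medians, with a short-minus-long difference of 0.007 ± 0.027 over 29 and 147 regions. The difference was 0.093 ± 0.023 for 51 to 52 bases, 0.135 ± 0.033 for 52 to 53 and 0.227 ± 0.039 for 53 to 55. It was above 0 in all 4 arrays in each of these 3 classes. The class of 53 to 55 bases had 17 of its 25 short-arm regions called higher (68.0%), against 16.3% of all regions of that class. Above 55 bases the difference was 0.233 ± 0.200 over 15 and 44 regions, and also above 0 in all 4 arrays. In the 3 classes below 53 bases, 13.8, 25.9 and 44.8% of short-arm regions were called higher, from shortest to longest. The shares of all regions of those classes were 7.08, 10.7 and 13.2%. Above 55 bases the shares were 40.0 and 11.9%.

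**Figure D5:**
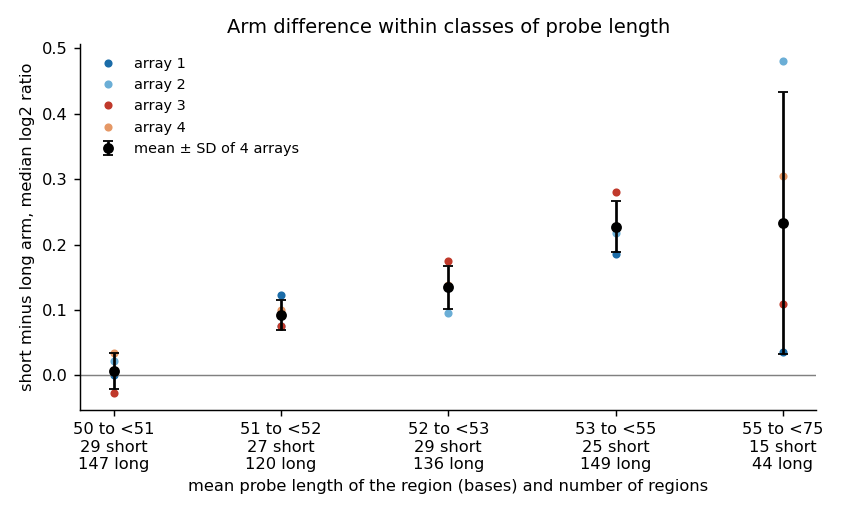
Short minus long arm difference of median log2 ratios within classes of mean probe length, per array (coloured points) and as mean ± SD of 4 arrays (black), with the number of regions under each class. The mean difference is 0.007 in the class of shortest probes and 0.227 at 53 to 55 bases.

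Probe length and place were linked on the arm. In the first 10 Mb, 28 of 31 regions had a mean length under 52 bases, and their median ratio was -0.034 ± 0.075. The 3 with longer probes stood at 0.388 ± 0.136, with 2 called higher. Between 10 and 20 Mb, 10 of 17 regions had probes that short. These stood at 0.187 ± 0.091, and the 7 with longer probes at 0.095 ± 0.091. From 30 Mb to the boundary, 18 regions had probes that short. Their median was 0.111 ± 0.094, with 5 called higher, while the 54 regions with longer probes stood at 0.256 ± 0.061 with 29 called higher. Higher calls made up 11.2% of all regions. In a further setting the mean of each probe length, over all single-match probes of an array, was subtracted. The windows at 35 and 40 Mb then averaged 0.272 and 0.268, and the short-minus-long difference was 0.136 ± 0.023. Over all regions the Spearman correlation of probe length with the mean ratio was 0.060, against 0.451 on the short arm. In the single arrays the values over all regions were -0.189, -0.109, 0.395 and 0.072, of both signs. The subtraction was made in each array and removes only the relation over all its single-match probes. Any further relation on the arm would remain. The part that base composition has in the ratios was not tested.

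The arrays ranked the short-arm regions alike to different degrees. Pearson correlations over the 125 members ran from 0.344 for arrays 1 and 3 to 0.748 for arrays 2 and 4. Over all regions the same pairs gave 0.337 and 0.697. Arrays 1 and 2 carry one array series number and arrays 3 and 4 another. The short-minus-long difference was 0.118 and 0.143 in arrays 1 and 2, and 0.141 and 0.108 in arrays 3 and 4. The windows at 35 and 40 Mb were at 0.221 and 0.207 in arrays 1 and 2, and at 0.286 and 0.282 in arrays 3 and 4. Array 3 gave the highest of the 4 values at 37.6% of members, against 29.6% of all regions.

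Few regions lay at the boundary. The last member, from 45731477 to 45734177, gave 0.10, -0.11, 0.57 and 0.29, a mean of 0.21 ± 0.29. Its mean was 0.32 without array 2 and 0.10 without array 3. The first long-arm region, from 49772458 to 49775158, gave 0.55, -0.13, 0.69 and 0.38, a mean of 0.38 ± 0.36, and the next one was at 0.07 ± 0.14. In both the last member and the first long-arm region array 2 alone was below 0. The first long-arm window with 10 or more regions, from 50 to 55 Mb, averaged 0.059 ± 0.084 over 17 regions, below the 0.244 ± 0.087 of the short-arm window from 40 to 45 Mb. When regions within 5 Mb of the boundary were left out on both sides, the short-minus-long difference was 0.099 ± 0.030. Another 4 short-arm regions had fewer than 5 single-match probes and were not members. Over all their probes, including those that match several places, they averaged 0.87, 0.24, 0.74 and 0.30, from the tip to the boundary. The 159 multi-match probes of the short arm averaged 0.488 ± 0.114, against 0.428 ± 0.142 for 540 on the long arm, a difference within the spread between arrays.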

How the data were processed

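The authors deposited 1 file per array with the log2 ratio of Cy5 (induced) to Cy3 (uninduced) signal of each probe. Per the file headers the ratios come from NimbleScan, with biweight means of -0.916, -1.05, -0.592 and -0.586. The deposited values are centred near 0, so these means are read as already subtracted. The base of the logarithm is not written and was taken as 2. The count field of a probe is read as its number of matches in the genome. Each array was centred on its median, and single-match probes (93.7%) were averaged per design region with at least 5 of them. All 17299 regions were tested against 0 (limma 3.58.1 under R 4.3.3, two-sided, a model with only an intercept, Benjamini-Hochberg adjustment), and the test was tested on simulated data. Arms and 5 Mb windows carry no test. Named were the 8 highest and 8 lowest members with 1 sign in all arrays, the extremes of each window, the member next to the boundary and those of extreme spread. No 2 arrays shared more than 0.73% of equal values. The members and lists were chosen with earlier results of these data known. The alternatives tried are in the closing section. Promoter sequence and gene names need the files' genome build and were not used here.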

Additional observations from a re-analysis of the deposited data

Results flagged for a closer look

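Of 39 values checked with Dixon's criterion for 4 arrays, 3 had one array beyond the 95% critical value, and chance flags about 1 in 20. Each time it was array 3. The region from 22888988 read 0.802 there, while arrays 1, 2 and 4 lay between -0.157 and -0.080. In the region from 40874842 it stood at 1.122, above 0.433 to 0.464 in the rest. For the region from 43515347 its ratio was 1.278, with the rest at 0.442 to 0.513. Mean probe lengths in these regions were 55.7, 54.9 and 56.8 bases, against 52.5 over the short arm, and the part of probe length was not tested.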

How the results depend on the processing

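The short-minus-long difference stayed above 0 under all 17 alternatives tried on it. It was 0.15 with medians over probes, 0.152 with means over regions and 0.099 without the 5 Mb on each side of the boundary, and 0.122 to 0.134 with each array left out. The count of 47 regions called higher was 31 with arrays 1 and 2 alone (8.2% of all regions, against 11.2%). It was 22 to 45 with each array left out (4.64 to 12.4% of all regions). With a minimum change of 0.5 log2 it was 14, and the share of all regions was not computed there. The count of 3 called lower, against 14.4% of all regions, was 5 with probe length subtracted (16.8% of all regions). It was 5 with arrays 3 and 4 alone (8.21%), 5 with trend and robust moderation (18.5%) and 8 with array weights (21.3%). It was 1 to 6 with each array left out (4.72 to 15.7%). With a minimum change of 0.5 log2 it was 0, again with no share computed. Among windows of 10 or more regions, the highest was at 35 Mb in all settings with unshifted windows (0.221 to 0.289) except without array 2, where it was at 40 Mb (0.264), and windows shifted by 2.5 Mb put it at 42.5 Mb (0.303). The tip window was at 0.063 with all probes, -0.049 to 0.018 with each array left out (0.018 without array 3) and 0.062 with arrays 1 and 2 alone. The region and window from 27073931 stood at -0.064 without array 3 and -0.13 with arrays 1 and 2 alone. The region from 22888988 stood at -0.11 to 0.21 with each array left out and at -0.119 with arrays 1 and 2 alone, and the last member, alone in its window, at -0.003 with arrays 1 and 2 alone. The causes of these changes were not tested. No paired analysis was possible because every array is itself a ratio of induced over uninduced DNA and all arrays form 1 group. Signal over background was not used here, so what it limits is unknown.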
